A study of Drosophila melanogaster with 3 samples.

Results

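The genes described here are the nuclear genes of Drosophila melanogaster that encode mitochondrial ribosomal proteins, taken as the protein-coding genes whose symbol is mRpL or mRpS followed by a number. There were 73 such genes among 13945 protein-coding genes of the 6 chromosome arms (2L, 2R, 3L, 3R, 4 and X) in the Ensembl annotation of dm6. By symbol alone, 47 were assigned to the large subunit (mRpL) and 26 to the small subunit (mRpS), and their place in the assembled ribosome was not checked. Each was examined for binding of NfI, a transcription factor related to the nuclear factor I (NFI) proteins of vertebrates, at its promoter. Chromatin immunoprecipitation sequencing (ChIP-seq) had been done in whole embryos of mixed sex collected at 12 to 24 h, from a transgenic line that stably expresses NfI with green fluorescent protein fused to its C terminus. There were 3 libraries, biological replicates 2, 3 and 4 (technical replicate 1 of each), all of 1 group with no treatment named. The description of each sample calls it an input control, whereas the assay title and the antibody label name NfI ChIP-seq, and the libraries were treated as immunoprecipitates. In whole embryos, binding in fewer cells and weaker binding in more cells cannot be told apart.

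The mitochondrial ribosome translates the few proteins encoded by mitochondrial DNA, which are subunits of the respiratory chain and the ATP synthase. In animals, all of its proteins are encoded in the nucleus, made in the cytosol and imported. Many have a counterpart in bacterial ribosomes, while others are found only in mitochondrial ribosomes. The embryonic ages sampled cover organ formation and the differentiation of muscle and nervous system.

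The deposited optimal list had 5806 peaks, and each replicate list and the list from pooled reads had 30000 peaks with background included. For every mitochondrial ribosomal protein gene with an optimal peak, the strongest one had the same rank in the pooled list. A place in the optimal list thus did not require a peak in each replicate. The optimal peak of mRpL53 (rank 1754) had no matching peak in replicates 3 and 4. Replicate 2 stood apart: 13037 of its peaks had a q-value of 0.01 or lower, against 8464 in replicate 3 and 5138 in replicate 4, and its median peak width was 430 bp, against 340 and 304 bp. Replicates were therefore compared by the 5806 strongest peaks of each, called strong peaks here. Strong peaks had a median signal of 147 (replicate 2), 82.9 (replicate 3) and 82.4 (replicate 4), on the scale of the authors' peak caller, which is not stated. Relative signal is a peak's signal divided by that median. A gene was counted as having a summit when the highest point of a peak lay within 500 bp of one of its transcription start sites (TSSs).

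The DNA under some of the strongest of these summits is shown first, to let its composition and its motifs be seen. Each run is from the RefSeq release 6 genome in dm6 coordinates, covers up to 100 bp to each side of the summit with untranslated bases trimmed, and reads 5′ to 3′ on the strand of the mitochondrial ribosomal protein gene. Capitals mark a searched motif on either strand. The summits of mRpS10 (3R:15229416-15229616, plus strand) and mRpS23 (2L:13835353-13835553, minus strand), which ranked 10 and 14 in the optimal list, held none of the 10 motifs searched.
mRpS10: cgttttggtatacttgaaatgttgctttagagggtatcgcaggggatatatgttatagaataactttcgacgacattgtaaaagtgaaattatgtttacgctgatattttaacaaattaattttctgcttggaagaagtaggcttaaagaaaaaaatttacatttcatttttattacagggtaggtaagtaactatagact
mRpS23: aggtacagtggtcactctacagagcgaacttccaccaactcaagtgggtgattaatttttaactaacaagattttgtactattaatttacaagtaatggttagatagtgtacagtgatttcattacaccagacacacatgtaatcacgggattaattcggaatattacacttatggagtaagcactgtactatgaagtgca

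The 4 strongest summits whose shown sequence held a motif were those of mRpL24 (2L:4945398-4945578, minus strand), mRpS2 (2L:4850484-4850640, minus strand), mRpS6 (3L:4364371-4364549, plus strand) and mRpS7 (2L:10386366-10386566, plus strand). The capitals are TAATTA, the core bound by many homeodomain proteins, in mRpL24, mRpS2 and mRpS7, and TTGGCA, 1 arm of the palindromic site of the NFI family, in mRpS6.
mRpL24: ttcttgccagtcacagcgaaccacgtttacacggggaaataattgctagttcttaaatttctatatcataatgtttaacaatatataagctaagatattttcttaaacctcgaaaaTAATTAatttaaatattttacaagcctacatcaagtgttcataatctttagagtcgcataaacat
mRpS2: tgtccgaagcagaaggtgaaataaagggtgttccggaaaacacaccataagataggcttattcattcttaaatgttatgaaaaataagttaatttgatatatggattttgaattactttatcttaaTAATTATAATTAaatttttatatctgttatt
mRpS6: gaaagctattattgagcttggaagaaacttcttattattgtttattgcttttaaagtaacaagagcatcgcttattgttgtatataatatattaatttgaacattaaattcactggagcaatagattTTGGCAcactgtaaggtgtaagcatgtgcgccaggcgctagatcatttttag
mRpS7: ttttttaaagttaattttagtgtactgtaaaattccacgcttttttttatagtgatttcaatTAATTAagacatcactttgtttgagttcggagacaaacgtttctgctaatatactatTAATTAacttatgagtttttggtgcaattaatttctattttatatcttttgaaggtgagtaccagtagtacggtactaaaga

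The summit of mRpL16, the only one of these genes on the X chromosome with a peak in the optimal list, held 3 motifs (X:1890044-1890244, plus strand). They are TAATTA, the E-box CACGTG, and TATCGATA, the DNA replication-related element (DRE) of many fly housekeeping promoters.
mRpL16: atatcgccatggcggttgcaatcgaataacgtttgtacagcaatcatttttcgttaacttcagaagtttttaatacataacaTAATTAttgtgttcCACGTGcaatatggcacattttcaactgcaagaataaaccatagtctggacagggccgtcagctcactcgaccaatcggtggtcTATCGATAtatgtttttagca

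In the optimal list, 36 of the 73 mitochondrial ribosomal protein genes (49.3%) had a summit, against 26.1% of all protein-coding genes. The subunits, as assigned by symbol, had near-equal shares, with a summit at 23 of 47 large subunit genes (48.9%) and 13 of 26 small subunit genes (50%). Genes with a bacterial counterpart had one in 24 of 45 cases (53.3%), and those without in 12 of 28 (42.9%). In the stronger part of the list (above its median signal), 25 genes had a summit (34.2%), against 15.8% of all protein-coding genes. These shares are descriptions, and no test was made of them. When each summit was given to its nearest protein-coding gene only, 16 mitochondrial ribosomal protein genes had one (21.9%, against 19.2%), a ratio of 1.14 in place of 1.89.

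The count differed between replicates. Among strong peaks, 47 mitochondrial ribosomal protein genes had a summit in replicate 2 (64.4%, against 29.2% of all protein-coding genes), 25 in replicate 3 (34.2%, against 21.6%) and 24 in replicate 4 (32.9%, against 22.5%). The mean was 32.0 genes ± 13.0 (SD, n = 3 replicates). The share of these genes divided by that of all genes was 2.21, 1.59 and 1.46 in replicates 2, 3 and 4 (mean 1.75 ± 0.398, SD, n = 3), above 1 in each. By subunit, 31, 12 and 13 large subunit genes and 16, 13 and 11 small subunit genes were held by the strong peaks of replicates 2, 3 and 4 in that order.

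Replicate 2 held many summits by strong peaks that the other replicates held only by weaker peaks or not at all. Among strong peaks, 18 mitochondrial ribosomal protein genes had a summit in replicate 2 only (24.7%, against 7.27% of all protein-coding genes). They were mRpL9, mRpL10, mRpL12, mRpL17, mRpL19, mRpL28, mRpL32, mRpL36, mRpL42, mRpL43, mRpL44, mRpL48, mRpL50, mRpL52, mRpL53, mRpS17, mRpS18C and mRpS29. Of these, only mRpL10, mRpL12, mRpL28, mRpL42 and mRpL53 had no summit in the full list of either replicate 3 or replicate 4. The others had a weaker one in at least 1 of them, such as mRpL32 at ranks 6140 and 7116. Optimal peaks matched by a strong peak in both replicate 3 and replicate 4 left 18 genes with a summit (24.7%, against 16.5%). In the full lists, background included, 62 genes had a summit in replicate 2 (84.9%, against 54.7%), 42 in replicate 3 (57.5%, against 47.6%) and 39 in replicate 4 (53.4%, against 43.3%), with a mean of 47.7 ± 12.5 (SD, n = 3). The pooled list held 53 (72.6%, against 50.3%).

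**Figure D1:**
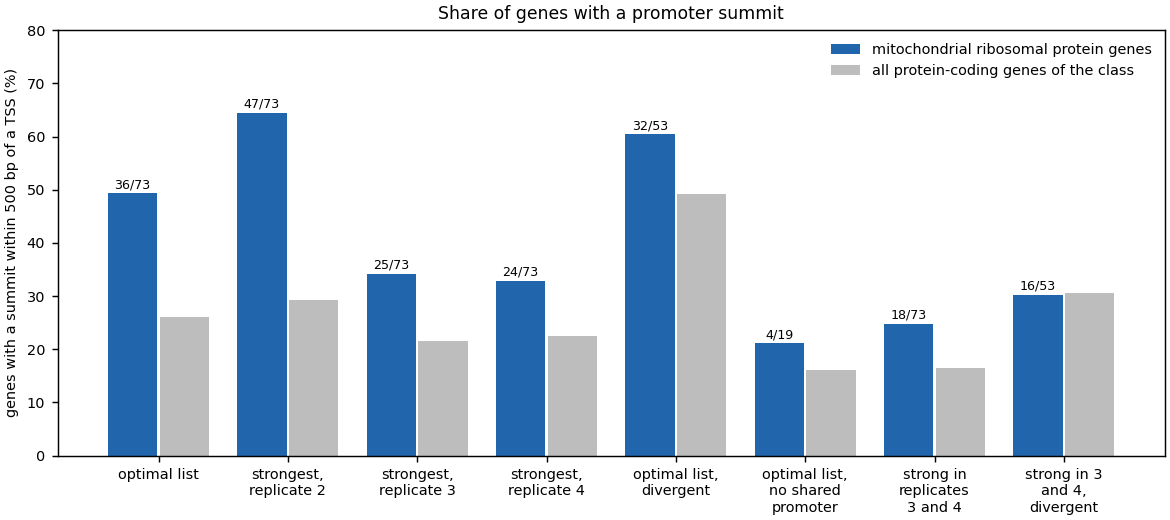
Share of genes with a promoter summit, in percent, for mitochondrial ribosomal protein genes (blue, with counts) and all protein-coding genes of the same class (grey), by peak list and promoter class; each bar is 1 share with no error bar. The blue bar is higher in the optimal list (49.3 against 26.1%) and in each replicate's strong peaks, and the bars are level for divergent genes when peaks must be strong in replicates 3 and 4 (30.2 against 30.5%); for replicates 2 and 4, not drawn, the shares were 35.8 against 35.3%.

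Many of these genes stand head to head with another gene. With TSSs within 500 bp, 54 of the 73 shared a promoter with a gene of any type, and within 250 bp, 26 did. A divergent protein-coding partner, transcribed away from the gene with a TSS within 500 bp, was present at 53 of 73 (72.6%), against 26.8% of all protein-coding genes. Among genes with such a partner, 32 of 53 mitochondrial ribosomal protein genes had an optimal summit (60.4%), against 49.2% of all divergent genes, a ratio of 1.23. Among genes with no TSS of another gene within 500 bp, 4 of 19 had one (21.1%), against 16.1% of all such genes. Both differences were smaller than that over all genes.

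The comparison within divergent genes varied between replicates. Among strong peaks, 39 divergent mitochondrial ribosomal protein genes had a summit in replicate 2 (73.6%, against 55.4% of all divergent genes), 22 in replicate 3 (41.5%, against 38.1%) and 21 in replicate 4 (39.6%, against 40.8%). The ratios were 1.33, 1.09 and 0.971 (SD 0.182, n = 3), that of replicate 4 lying below 1. Optimal peaks matched by strong peaks of both replicates 3 and 4 left 16 of 53 (30.2%, against 30.5%, ratio 0.990), those of replicates 2 and 4 left 19 (35.8%, against 35.3%, ratio 1.02), and those of replicates 2 and 3 left 22 (41.5%, against 34.9%, ratio 1.19). The shares were thus near-equal without replicate 2 and without replicate 3. The part of the divergent arrangement and of single replicates in the share over all genes was not tested beyond these counts.

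The strongest summits were spread over a wide range of rank. Of the 16 protein-coding genes with a summit up to rank 20, 3 were mitochondrial ribosomal protein genes. These genes were 4 of 94 up to rank 100, 7 of 465 up to rank 500 and 8 of 873 up to rank 1000. At any rank they were 36 of 3643. Their median rank was 2260, against 2300 for all protein-coding genes with a summit. The summits of the 36 genes were 36 distinct peaks, and mRpS26 had a second summit.

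The 4 strongest belonged to mRpL41, mRpS10, mRpS23 and mRpL23. At mRpL41 (FBgn0034001), a large subunit protein with no bacterial counterpart, the relative signal was 22.4, 18.9 and 13.4 in replicates 2, 3 and 4 (mean 18.2 ± 4.55, SD, n = 3). At mRpS10 (FBgn0038307), the counterpart of a protein of the head of the bacterial small subunit, it was 13.9, 14.5 and 13.1 in replicates 2, 3 and 4 (13.8 ± 0.748). Replicate 2 gave the highest value at mRpL41, while the replicates were close at mRpS10. At mRpS23 (FBgn0260407), a small subunit protein with no bacterial counterpart, it was 9.66, 15.6 and 15.8 (13.7 ± 3.49), with replicate 2 the lowest. At mRpL23 (FBgn0035335), the counterpart of a protein at the mouth of the bacterial peptide exit tunnel, it was 8.09, 9.87 and 10.2 (9.39 ± 1.14). All 4 lay in the 52 strongest peaks of each replicate.

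The next 4 were also matched by a strong peak in every replicate. At mRpL24 (FBgn0031651), whose bacterial counterpart likewise sits at the exit tunnel, the relative signal was 5.76, 4.27 and 4.15 in replicates 2, 3 and 4 (4.73 ± 0.895, SD, n = 3). At mRpS2 (FBgn0031639), it was 3.61, 3.57 and 4.41 (3.86 ± 0.477). At mRpL20 (FBgn0036335), whose bacterial counterpart binds ribosomal RNA early in assembly, it was 3.34, 3.45 and 2.58 (3.12 ± 0.476). Replicate 2 was the highest at mRpL24, and not at mRpS2 or mRpL20. At mRpS6 (FBgn0035534), it was 2.38, 2.22 and 2.27 (2.29 ± 0.0822), the lowest coefficient of variation of the genes matched in all replicates at 3.59%, followed by mRpS10 at 5.41%.

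From the ninth gene on, most values were below 2. At mRpS7 (FBgn0032236), whose bacterial counterpart is a protein of the small subunit head, the relative signal was 1.66 in replicate 2 and 1.78 in replicate 3, and no peak of replicate 4 matched it. At mRpL34 (FBgn0083983), it was 1.51, 1.33 and 1.84 in replicates 2, 3 and 4. At mRpS26 (FBgn0036774), found in mitochondrial and not in bacterial ribosomes, it was 2.08, 1.25 and 0.869. At mRpL37 (FBgn0261380), also without a bacterial counterpart, it was 1.99, 0.781 and 1.25. Replicate 2 was the highest at both mRpS26 and mRpL37, but not at mRpL34.

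**Figure D2:**
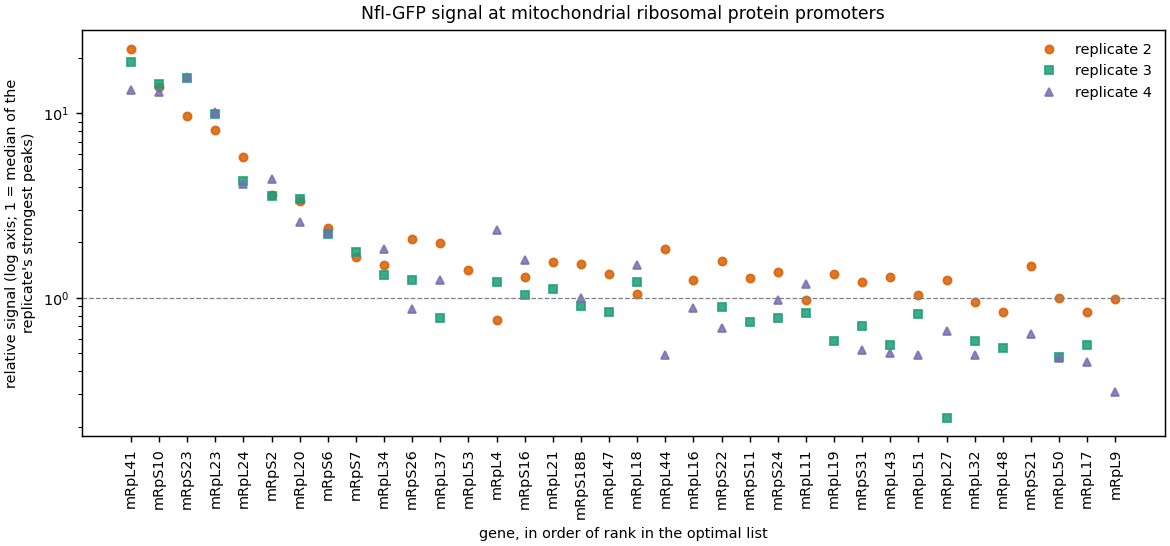
Relative signal (log axis, 1 is the median of a replicate's 5806 strongest peaks) of the matching peak in replicates 2, 3 and 4 for the 36 mitochondrial ribosomal protein genes with an optimal summit, in order of optimal rank; a missing symbol means no matching peak. The coefficient of variation is at most 25.5% for the 8 genes at the left; at the right the replicates spread, and replicate 2 is mostly the highest.

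Over all 36 genes, the median relative signal was 1.39 in replicate 2 (n = 36), 0.901 in replicate 3 (n = 31 matched) and 1.00 in replicate 4 (n = 29 matched). For all protein-coding genes with an optimal summit it was 1.32 (n = 3570 matched), 1.02 (n = 3452) and 1.16 (n = 3188), of 3643 genes. Genes with no matching peak in a replicate do not enter its median. The means of the medians were 1.10 ± 0.258 for mitochondrial ribosomal protein genes and 1.17 ± 0.152 for all genes (SD, n = 3 replicates). Compared within each replicate, the median of the mitochondrial ribosomal protein genes was the higher in replicate 2 and the lower in replicates 3 and 4. Of the 25 genes with a peak in every full replicate list, 15 were highest in replicate 2 (60.0%, against 50.2% of all such genes), 2 in replicate 3 and 8 in replicate 4. The median coefficient of variation over replicates was 29.1%, against 27.8%.

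The genes with the largest spread between replicates were of mixed pattern. At mRpL27, the counterpart of a bacterial large subunit protein near the catalytic centre, the relative signal was 1.25, 0.224 and 0.658 in replicates 2, 3 and 4, a coefficient of variation of 72.3%. At mRpL43, it was 1.29, 0.555 and 0.503 (56.5%), and at mRpL50 it was 1.00, 0.476 and 0.469 (47.1%). At mRpL4, whose bacterial counterpart lines the exit tunnel, it was 0.759, 1.22 and 2.33 (56.1%). Replicate 2 was the highest at mRpL27, mRpL43 and mRpL50, and the lowest at mRpL4.

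Strong peaks of replicate 2 matched all 36 optimal summits, against 90.9% of those of all protein-coding genes. Strong peaks of replicate 3 matched 24 (66.7%, against 75.5%) and those of replicate 4 matched 21 (58.3%, against 75.3%). Thus 18 genes were matched in all replicates (50%, against 58.4%), 9 in 2 and 9 in 1. With full lists, 25 were matched in 3 replicates, 10 in 2, and mRpL53 in replicate 2 alone. Where a match existed, summits lay a median of 16, 22.0 and 16 bp from the optimal summit in replicates 2, 3 and 4, and at most 99, 102 and 92 bp.

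Summits lay upstream of the genes. The position along the strand was upstream of the nearest TSS of the gene in 35 of 36 cases (97.2%), against 86.6% of all protein-coding genes with a summit and 89.5% of the divergent ones. The median position was -138 bp, against -112 bp, with quartiles of -198 and -78.5 bp, against -211 and -39.0 bp. It ranged from -381 bp at mRpS23 to 54 bp at mRpL23, the 1 gene with its summit downstream of its TSS and within its own 5′ UTR. By strong peaks of single replicates, the median was -115, -136 and -149 bp in replicates 2, 3 and 4, with 43 of 47, 23 of 25 and 22 of 24 upstream. Of the other summits, 30 were intergenic, 4 lay in the 5′ UTR of the neighbour (CG15435, HtrA2, Taz and Uba4) and 1 in an intron of AGO1, beside mRpL53.

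In the divergent pairs, the summit lay in the DNA between both TSSs in 27 of 32 cases, against 70% of 1839 divergent protein-coding genes. It was nearer to the partner's TSS in 21 pairs and to that of the mitochondrial ribosomal protein gene in 11. The same split over all divergent genes was not counted, so these 2 counts have no background beside them. The TSSs of pairs with a summit were a median of 286 bp apart (20 to 492 bp), against 136 bp (21 to 499 bp) in the 21 pairs without one. Over all divergent genes these medians were 255 and 228 bp. Counting genes of every type, 33 of 36 summits (91.7%, against 59.1%) had a TSS of another gene within 500 bp, and mRpL4, mRpL9 and mRpL19 stood alone. The mitochondrial ribosomal protein gene was the nearest of all genes to its summit in 14 cases, and in the others another gene was as near or nearer. That count too has no value over all protein-coding genes beside it.

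The neighbours had varied roles. At the strongest divergent summit, the partner of mRpS10 was Art3, a protein arginine methyltransferase, whose TSS lay 108 bp from the summit (3R:15229341-15229717). The partner of mRpS23 was CenG1A, a GTPase-activating protein, at 111 bp (2L:13835289-13835646). That of mRpL23 was CG9004 at 104 bp (3L:2373420-2373792). These 3 distances were alike. The summit of mRpL41 lay 443 bp from the nearest other TSS, that of lncRNA:CR44463, and at -135 bp from mRpL41 (2R:15217572-15218013).

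Other partners included betaggt-I, a subunit of a protein prenyltransferase, 81 bp from the summit it shares with mRpL24 (2L:4945308-4945652). Mon1, which acts in endosome maturation, stood 57 bp from that of mRpS2 (2L:4850375-4850719). Icmt, a methyltransferase of prenylated proteins, stood 128 bp from that of mRpL20 (3L:13017993-13018302). Near mRpS6 the order was turned round: the summit lay at -79 bp from mRpS6 and 369 bp from Cip4, a membrane-curving protein (3L:4364321-4364611). Among the remaining partners were Cdk1, the mitotic kinase (mRpS7), Dg, or dystroglycan (mRpL34), AGO1, the microRNA-binding Argonaute (mRpL53, with CG33155), and CG13698 (mRpS26). Regulators of chromatin or transcription included cg (mRpS16), rept (mRpL21), Kdm3 (mRpL47, with CG8176), Snr1 (mRpL44) and trr (mRpL16). Genes acting in mitochondria included Taz, which remodels cardiolipin (mRpL18), and HtrA2, a protease (mRpL11). Further partners were Kua (mRpS18B), CG5003 (mRpS22), Ns1 (mRpS11), Apc2 (mRpS24), hzg (mRpS31), CG30183 (mRpL43), Uba4 (mRpL51), CG15435 (mRpL27), qless (mRpL32), CG17660 (mRpL48), Droj2 (mRpS21), mei-P22 (mRpL50) and Tudor-SN (mRpL17).

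By chromosome arm, 9 of 12 genes on 2L had an optimal summit (75.0%, against 25.6% of all protein-coding genes of the arm), 6 of 12 on 2R (50%, against 26.1%), 8 of 17 on 3L (47.1%, against 27.4%) and 12 of 21 on 3R (57.1%, against 27.3%). On X, mRpL16 alone of 11 had one (9.09%, against 24.1% of genes on X). In the full list of replicate 2, however, 9 of the 11 had a summit (81.8%, against 58.7%). In replicate 3 there were 2 (18.2%, against 44.7%) and in replicate 4 there were 3 (27.3%, against 40.4%). No gene of the set lies on chromosome 4.

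The other 37 genes had no optimal summit, and none had one within 1000 bp of a TSS. Of these, 4 had a summit in every full replicate list (mRpL2, mRpL54, mRpS5 and mRpS25), and 11 in 2 of them (mRpL1, mRpL22, mRpL33, mRpL35, mRpL36, mRpL52, mRpL55, mRpS17, mRpS18A, mRpS18C and mRpS29). Another 13 had one in 1 list. For mRpL3, mRpL10, mRpL12, mRpL13, mRpL15, mRpL28, mRpL38, mRpL42, mRpL46, mRpL49, mRpS14 and mRpS30 this was replicate 2, and for mRpL40 it was replicate 3 (rank 12454). The remaining 9 had none: mRpL14, mRpL30, mRpL45, mRpS9, mRpS28, mRpS33, mRpS34 and mRpS35 had no summit in any list, and mRpL39 had one only in the pooled list (rank 26606).

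Replicate 2 held 26 of these 37 genes, 11 of them by strong peaks, while replicate 3 held 11 (1 strong) and replicate 4 held 10 (3 strong). Counts by replicate or number of lists were not made over all protein-coding genes without an optimal summit. Of all protein-coding genes, with or without one, the full lists of replicates 2, 3 and 4 held 54.7%, 47.6% and 43.3%. Their strong peaks held 29.2%, 21.6% and 22.5%. The strongest in replicate 2 were mRpL28 at rank 2271 and mRpL10 at rank 2400, both without a summit in the other replicates. The small subunit gene mRpS5 showed the opposite order, with ranks of 12406 in replicate 2, 4897 in replicate 3 and 3482 in replicate 4. At the limit of the optimal list, mRpL9 was the last inside with rank 5582, and mRpL54 and mRpL35 were the first outside, at ranks 6004 and 6111 of the pooled list.

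**Figure D3:**
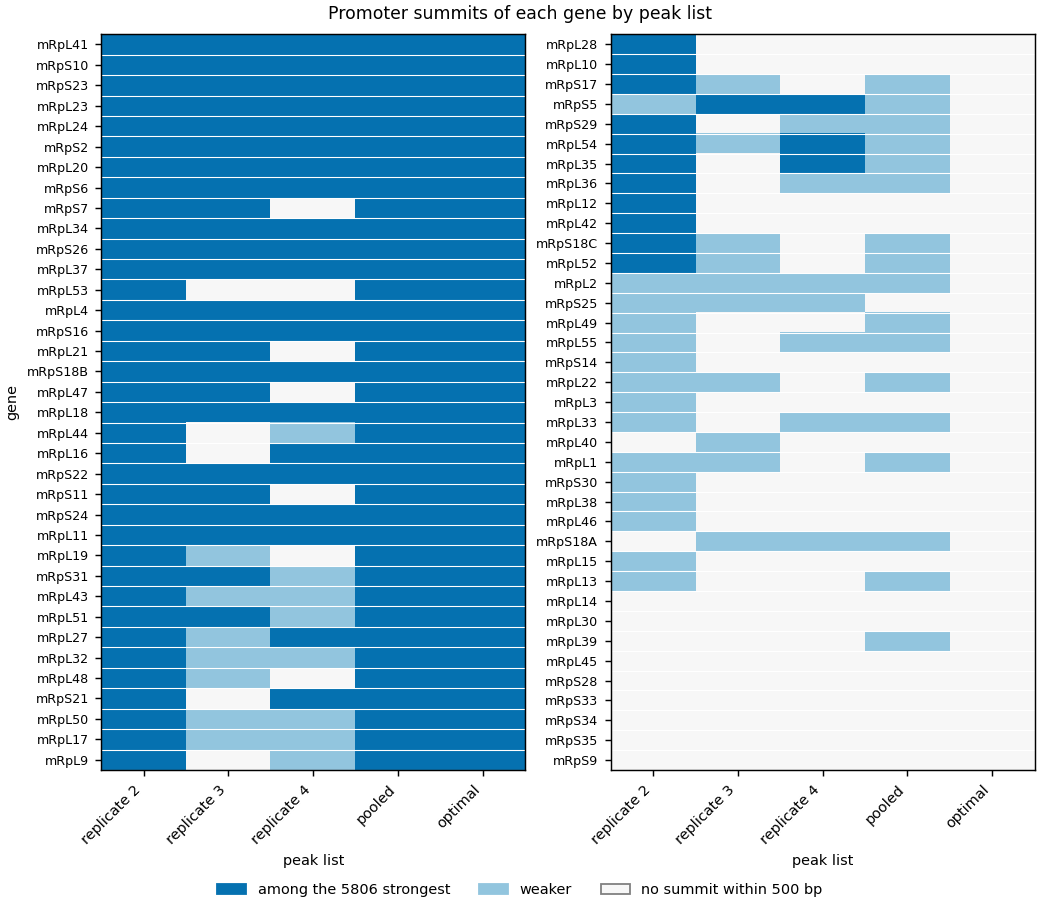
Peak lists (columns) that hold a promoter summit of each of the 73 mitochondrial ribosomal protein genes (rows), dark for a summit among the 5806 strongest peaks of that list, light for a weaker one, and near white for none. Left, the 36 genes with an optimal summit, all dark in replicate 2; right, the 37 without one, of which 11 are dark in replicate 2, 1 in replicate 3 and 3 in replicate 4.

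Optimal summits were also counted at other genes of mitochondrial gene expression. The 2 further small subunit genes with other symbols, tko and bonsai, had no optimal summit. Of mitochondrial translation factors, 1 of 10 had one (waw, rank 3890), and of the genes for mitochondrial transcription and RNA processing, 2 of 9 (mTerf5, rank 1782, and mTerf3, rank 4358). Of mitochondrial aminoacyl-tRNA synthetases, which charge tRNAs in the organelle, 3 of 15 had one, the strongest being ArgRS-m (rank 2414) and CysRS-m (rank 3630). Of mitochondrial DNA replication genes, 2 of 4 had one, mtSSB (rank 1028) and PolG2 (rank 2304). These lists are small, and 26.1% of all protein-coding genes had a summit.

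The cytosolic ribosomal proteins, the nearest parallel to the mitochondrial ones, are given beside them. The 92 cytosolic genes all carry an RpL or RpS symbol. They include genes named as like another, such as RpL22-like and RpLP0-like, whose place in the ribosome was not checked. A summit was found at 36 of 73 mitochondrial genes (49.3%), against 75 of 92 cytosolic ones (81.5%). In the strong peaks of replicates 2, 3 and 4, 47, 25 and 24 mitochondrial genes had a summit, against 79, 75 and 69 cytosolic ones, whose counts were closer to each other. Summits of the mitochondrial set lay at a median of -138 bp with 35 of 36 upstream, against a median of -20.0 bp with 58 of 75 upstream in the cytosolic set. The median optimal rank was 2260 against 629, and 72.6% against 39.1% had a divergent partner.

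Motifs were counted in windows of 100 bp to each side of the 36 summits and, for comparison, of the 2611 distinct peaks that gave the strongest summit of each protein-coding gene with one. The 10 motifs were searched on both strands, and a window counted once however many matches it held. None of these motifs contains another, except that the NFI palindrome can contain its arm. The NFI palindrome was in none of the 36 windows, and in none of the 2611. Its single arm, TTGGCA, was in 6 (16.7%, against 14.2%), at mRpL17, mRpL19, mRpL37, mRpS6, mRpS21 and mRpS31. TAATTA was in 9 windows (25.0%, against 16.9%) and CAGCTG in 9 (25.0%, against 14.7%). CACGTG was in 4 (11.1%, against 2.95%), at mRpL16, mRpL23, mRpL27 and mRpS11.

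Further promoter motifs were counted in the same windows. The DRE (TATCGATA) was in 3 windows (8.33%, against 9.23%), at mRpL16, mRpL19 and mRpS18B. With windows of 50 bp to each side it was in 0, and with 200 bp in 6, with no share of the comparison peaks given for these widths. Motif 1 (GGTCACACT) was in 2 (5.56%, against 4.67%), at mRpL48 and mRpS16. GAGAGAG was in none (against 3.60%), nor was the ETS site CCGGAAG (against 1.11%) or Motif 7 (CATCNCTA, against 7.43%). The median GC content of the windows was 33.1%, against 36.8%.

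Motifs were also counted at the TSSs themselves. The palindrome CAGCTG, the core of an E-box element known from fly core promoters, was found from 250 bp before to 50 bp after the 5′-most TSS in 40 of the 73 mitochondrial ribosomal protein genes (54.8%), against 17.7% of all protein-coding genes, 25.1% of divergent ones and 9.78% of cytosolic ribosomal protein genes. This count was singled out after its values were seen. The shares were near-equal with and without an NfI peak: 19 of 36 genes with an optimal summit had the hexamer (52.8%), and 21 of 37 without (56.8%). By promoter class they were 54.7% of genes with a divergent partner and 55% of those without one. Of the 45 sites, 36 had their first base within 50 bp of the TSS, with a median position of 2.00 bp and a range of -248 to 38 bp. Within 50 bp, 47.9% of the mitochondrial ribosomal protein genes had a site, against 9.30% of all protein-coding genes. In mitochondrial ribosomal protein genes with a summit, 8 of 23 sites lay within 100 bp of the summit, and the median distance was 113 bp. No such distances over all genes with a summit are given here.

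The sites below show the hexamer in capitals with up to 10 bases on each side, on the strand of the gene, for 4 genes with an optimal summit and 4 without, to let their surroundings be compared. They are at 3R:14511823-14511848 (mRpL11, plus strand), 3L:4364554-4364579 (mRpS6, plus), 2L:4850415-4850440 (mRpS2, minus) and 2L:4945326-4945351 (mRpL24, minus), and at 3L:11120847-11120872 (mRpL2, plus), 3R:11407931-11407956 (mRpL40, plus), 3L:16348066-16348091 (mRpS34, plus) and 3L:2780877-2780902 (mRpS35, plus). The first base lay at -5, 14, -11 and 20 bp from the TSS in the first 4, and at 10, 23, 2 and -12 bp in the others.
mRpL11: gcaataccatCAGCTGttgctgcttc
mRpS6: ttccttgcatCAGCTGttaacactat
mRpS2: cactacccacCAGCTGtttaccaaaa
mRpL24: cagttctcaaCAGCTGattgcaagcc
mRpL2: cgccgcgtaaCAGCTGttttcagccg
mRpL40: gcaacaaaaaCAGCTGttcgtacatt
mRpS34: ccagccggcaCAGCTGttcgaccttc
mRpS35: tttctgtaaaCAGCTGattgcttgct

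**Figure D4:**
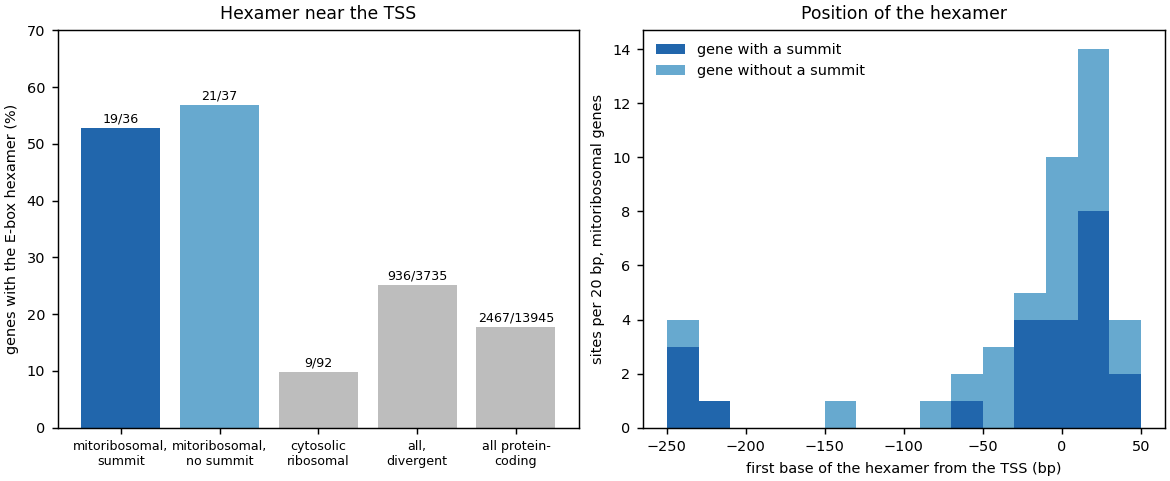
Left, percent of genes with the palindromic E-box hexamer from 250 bp before to 50 bp after the 5′-most TSS, for mitochondrial ribosomal protein genes with and without an optimal summit and for 3 larger sets (counts above bars); right, position of the 45 sites of the mitochondrial ribosomal protein genes relative to the TSS, in bins of 20 bp. The 2 left bars, 52.8 and 56.8%, stand above the grey bars at 9.78 to 25.1%, and most sites crowd around the TSS, at a median of 2.00 bp.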

How the data were processed

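The labels describe NfI ChIP-seq of 3 libraries of 1 group, sheared by sonication to a range of 200 to 800, with no unit given; an age label of another size than 12 to 24 h was not used. The authors deposited peak lists for dm6: per replicate, pooled, and an optimal list from the irreproducible discovery rate, with each replicate set against a shared control alignment per the deposited listings. Each peak has the authors' signal, on a scale not stated, a deposited −log10 q-value, and a deposited summit offset. Aligner and peak caller: not given in the sources used here. No read counts are in these lists, so depth is unknown.

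Here, genes and TSSs came from Ensembl release 115 (BDGP 6.54), and sequence from RefSeq release 6. No peak ended beyond its arm. A summit was assigned to every gene with a TSS within 500 bp. An optimal peak was matched to the strongest replicate peak overlapping it by at least 1 bp. A bacterial counterpart was assigned from the gene's number: up to 36 for the large and up to 21 for the small subunit, with mRpL47, mRpS24 and mRpS28 added, whose bacterial counterparts have other numbers. Motifs were exact matches. Scripts ran in Python 3.11.15 with matplotlib 3.10.9. The test on simulated data covered the assignment of summits to genes and the overlap of peaks, and not the motif search.

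No test was made: with 1 group there is no contrast, and counts stand beside those over all genes. Genes given by replicate were the 12 strongest by optimal rank, and the 4 highest and 2 lowest in coefficient of variation. Sequences shown were those of the 4 strongest summits off arm 2R with a motif left after trimming. Those of mRpS10, mRpS23, mRpL16 and the hexamer sites were added after their values were seen. The summit of mRpL41, on 2R, was therefore not shown. Motif counts at summits were made in untrimmed windows, such as that of mRpL23, whose CACGTG was lost on trimming. The genes and lists were chosen with earlier results of these data known, and 2 listed symbols matched no gene. The name of 1 neighbouring gene is not reported here. Alternatives were other TSS distances, TSS sets, list lengths, overlaps, scales and windows, and leaving out each replicate.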

Additional observations from a re-analysis of the deposited data

How the results depend on the processing

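Over 12 results and 53 alternatives, 36 left the value near that reported, 16 moved it and 1 turned its direction. For counts, near meant within a factor of 1.5, which is wide. It took in a fall from 36 genes with an optimal summit to 24 (without replicate 4). It also took in a fall from 18 genes matched in all replicates to 12 (overlap of 50% of each peak). The count of 36 genes with an optimal summit became 16 when a summit went to its nearest gene only, 18 with peaks matched in all 3 replicates, and 4 among genes with no shared promoter, and it ranged from 18 (without replicate 2) to 24 (without replicate 4) with 1 replicate left out. The share over that of all genes, 1.89, was 1.14 with the nearest gene only and 1.30 with no shared promoter, and ranged from 1.49 to 1.79 with 1 replicate left out. Among divergent genes, the count of 32 ranged from 16 to 22 and the ratio of 1.23 from 0.990 (without replicate 2, turned to below 1) over 1.02 (without replicate 3) to 1.19 (without replicate 4), an alternative added after seeing the data. With 1 replicate left out, the mean count in strong peaks ranged from 24.5 to 36 and the median relative signal from 0.953 to 1.20; over other list lengths and distances that count ranged from 21.3 to 39.3. Scaled to full lists, that median was 3.73, since weaker peaks set the scale. With TSSs within 250 bp, 26 genes shared a promoter, against 54 at 500 bp. The DRE was in 0 windows of 50 bp to each side of the summit and 6 of 200 bp, and Motif 1 in 1 and 5. The optimal list itself drew on every replicate, so leaving 1 out means keeping peaks matched in both others. No paired analysis was possible because there is only 1 group. Depth limits are unknown, since the lists hold no read counts.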

Other observations

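The hexamer CAGCTG near the TSS, singled out after its values were seen, was also counted in the other lists, which are small. It was present from 250 bp before to 50 bp after the TSS in 7 of 15 mitochondrial aminoacyl-tRNA synthetase genes (46.7%), 5 of 10 mitochondrial translation factor genes, 5 of 9 genes for mitochondrial transcription and RNA processing, and both tko and bonsai, against 17.7% of all protein-coding genes. It was in none of 4 mitochondrial DNA replication genes. Among the 53 divergent partners of mitochondrial ribosomal protein genes, whose windows can overlap those of their neighbours, 21 had it (39.6%), and 22.6% had it within 50 bp of the TSS, against 47.9% of the mitochondrial ribosomal protein genes. Of mitochondrial ribosomal protein genes with the hexamer, 47.5% had an optimal NfI summit, and of those without it, 51.5%. The DRE was in the start windows of 8 of 36 genes with a summit (22.2%) and 7 of 37 without (18.9%), against 9.37% of all protein-coding genes.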
